A study of Homo sapiens with 4 samples.

Results

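The ETS factors are DNA-binding proteins that share a winged-helix domain and read a GGAA core in promoters and enhancers. The set described here holds 10 of them, ETV3, ETV4, ETV5, ETV6, ETS1, ETS2, ELF1, ELF3, EHF and ELK1, out of 17605 genes named on the array. They were taken by gene symbol from the platform annotation and are read by 11 probes of 24459, 1 for each gene except ELK1, which has 2. The set was chosen by the large ETV3 change in DLD1 on these same arrays, with its relatives added for comparison. The changes with medium are therefore given as a description, with no test.

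RNA from DLD1 and HT29, established human colorectal cancer lines, was hybridised to 4 single-colour (Cy5) oligonucleotide arrays, 1 for each line and medium. The groups were DLD1 without glucose, DLD1 with glucose, HT29 without glucose and HT29 with glucose. All cells were kept for 24 h in medium with 10% dialysed serum and 2 mM glutamine, with 10 mM glucose added in the groups with glucose and none in the others. No label says whether cultures were repeated. With 1 array a group, changes inside a line cannot be checked against replicates and carry no p-value.

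Many ETS factors end signalling chains that run from growth factor receptors through RAS and the kinase ERK. ERK phosphorylates activators such as ETS1, ETS2 and ELK1 and raises their output, while it drives the repressor ERF out of the nucleus. In gut epithelium the branch of ELF3 and EHF is known for barrier and differentiation genes, and ETV4 and ETV5 are known as transcripts that follow ERK activity.

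Levels are given as the authors' deposited intensities, which are linear, close to zero at the level of empty spots, and have the same median, 25.0, for every array. Changes are log2 differences, without minus with glucose or HT29 minus DLD1, of scanner signals corrected by the normexp method with an offset of 50 and quantile normalized. That offset shrinks the changes of dim probes. Levels of different probes are not compared with each other. All 11 probes lay above the 95th percentile of the blank spots on all 4 arrays, as did 85.5% to 87.0% of all probes on each array. The 11 colon epithelium markers on the array had summed intensities of 26026 to 38643. Most of each sum was KRT18, at 15424 to 23225, and EPCAM, at 5833 to 8666. CDX1, at 10.2 to 20.3, and CEACAM5, at 0.8 to 11.5, were low on all 4 arrays. Of 6 fibroblast and 3 endothelial markers 0 reached an intensity of 100 on any array, with sums of 98.2 to 115.4 and 26.0 to 34.3. Summed leukocyte markers were at 6652 and 15545 in HT29 against 45.6 and 27.9 in DLD1. Nearly all of the HT29 sum was LYZ, the lysozyme gene that some gut cells also use, at 6567 and 15522 in HT29 against 5.0 and 6.6 in DLD1. PTPRC, the pan-leukocyte phosphatase gene, was at 1.1 on 1 array and not listed on the others. The defining intestinal factor gene CDX2 was at 6.2 and 4.0 in HT29 against 148.7 and 289.4 in DLD1, and the cadherin gene CDH17 at 3.0 and 4.8 against 238.0 and 143.7. Other intestinal markers went the other way, LGALS4 at 4197 and 2342 in HT29 against 15.2 and 7.8 in DLD1, KRT20 at 711.2 and 474.5 against 47.1 and 43.5, and VIL1 at 108.7 and 209.1 against 68.0 and 62.1. RNA of whole cultures was measured, so fewer cells with a transcript and less of it per cell cannot be told apart.

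ETV3 encodes an ETS repressor that in mouse macrophages is known to link differentiation with arrest of the cell cycle. Its intensity was 530.4 in DLD1 without glucose, against 4.4 in DLD1 with glucose. In HT29 it was 15.9 without glucose, against 13.9 with glucose. One array thus stood far above the other 3, which lay close to the background. The log2 change was 3.89 in DLD1, against 0.04 for HT29. The DLD1 value ranked 2 of 15616 measured genes from the highest. In the deposited values the DLD1 change was 6.91, and with the local background subtracted it was 2.84. The size thus differed between settings, while the direction held under every setting tried.

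**Figure D1:**
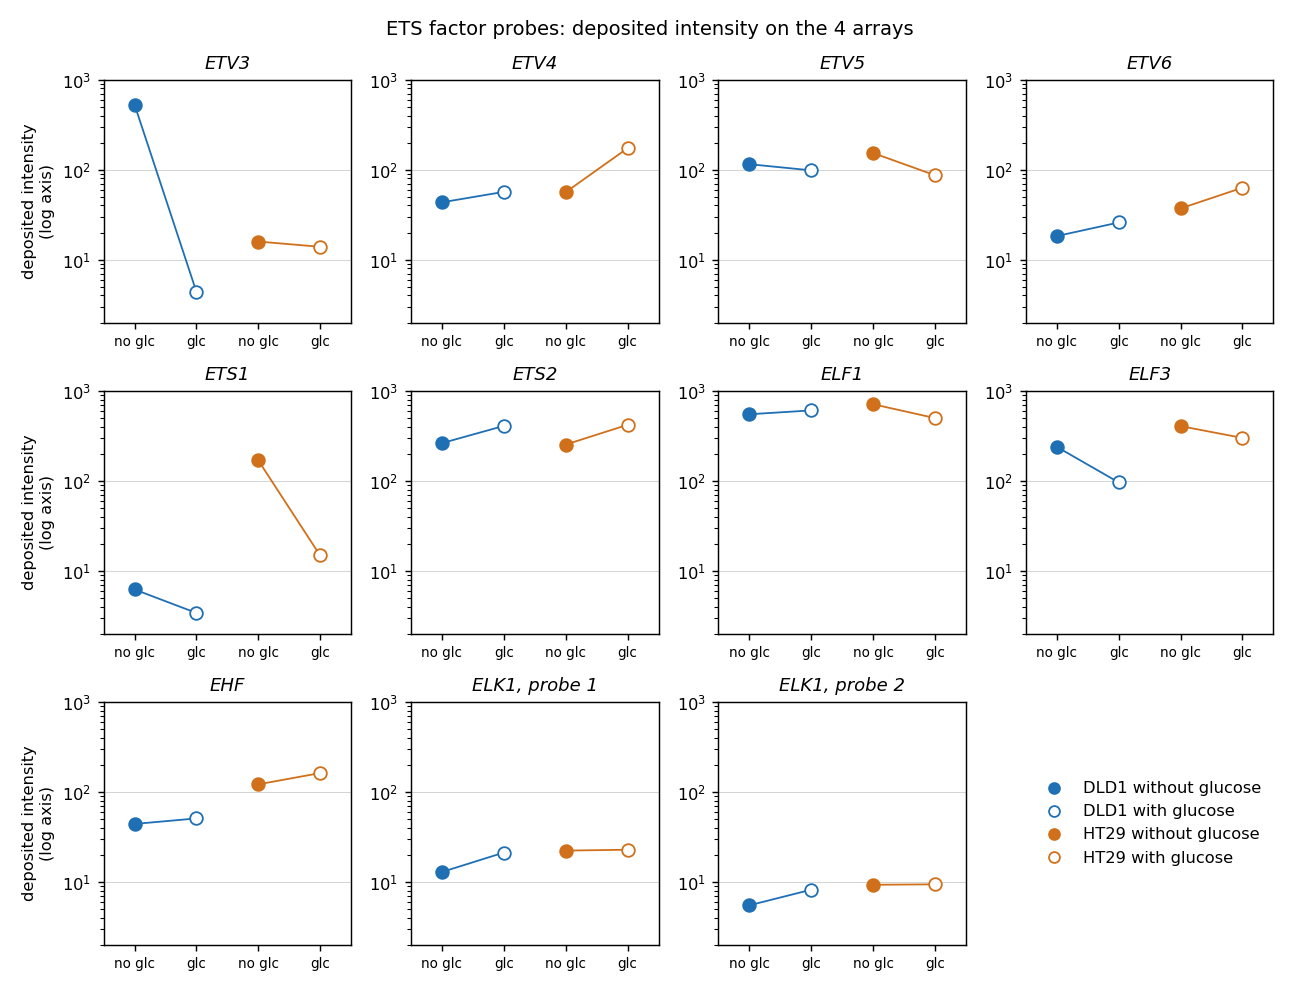
Deposited intensity (log axis) of each of the 11 ETS factor probes on the 4 arrays, filled circles without glucose and open circles with glucose, DLD1 in blue and HT29 in orange, 1 array per point. ETV3 is at 530.4 in DLD1 without glucose and between 4.4 and 15.9 elsewhere, and ETS1 is at 169.0 in HT29 without glucose and between 3.4 and 14.8 elsewhere.

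The ETV3 value rests on 1 probe and 1 spot of 1 array, so the spots around it were read as well. On the scanner scale the ETV3 spot had a signal of 655.5 in DLD1 without glucose, against 40.0 in DLD1 with glucose, and 52.0 and 54.2 in HT29 without and with glucose. The area around the spot had a local background of 320.6, against 33.7, and 45.0 and 43.2 in HT29. Whether that local background was usual for a spot of this signal was not tested. Over all probes the log signals of spot and local background had a correlation of 0.97 in DLD1 without glucose. On the other arrays it was 0.90 to 0.95. No scanner flag was set on the ETV3 spot.

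The spots above and to the right of ETV3 were bright on all 4 arrays. The spot above, a probe with no symbol in the platform annotation, was at 1769.5 in DLD1 without glucose, against 3290.5 in DLD1 with glucose, and at 6124.9 and 4474.9 in HT29 without and with glucose. The spot to the right, for PLEKHB2, was at 679.9 in DLD1 without glucose, against 1063.4 in DLD1 with glucose, and at 1519.3 and 2095.7 in HT29. Both were lower in DLD1 without glucose than on any other array. The spot between them on the diagonal, for the neurexophilin gene NXPH3, was at 163.3 in DLD1 without glucose, against 58.9 in DLD1 with glucose, and at 65.0 and 67.7 in HT29. In this corner of 4 spots, the 2 that were dim elsewhere had their highest signal, and the 2 that were bright elsewhere their lowest, on the same array. The normalized log2 changes in DLD1 were 3.89 for ETV3, 1.37 for NXPH3, -0.29 for PLEKHB2 and -0.53 for the unnamed probe. In DLD1 the local background of NXPH3 was 146.3 without glucose, against 51 with glucose. That of PLEKHB2 was 639, against 1139.9, and that of the unnamed probe 1892.6, against 3049.4. The other 5 adjoining spots, 3 of them blank, were between 34.8 and 63.3 in DLD1 without glucose, against 35 to 60.1 in DLD1 with glucose. The part of the adjoining spots in the ETV3 value was not tested.

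**Figure D2:**
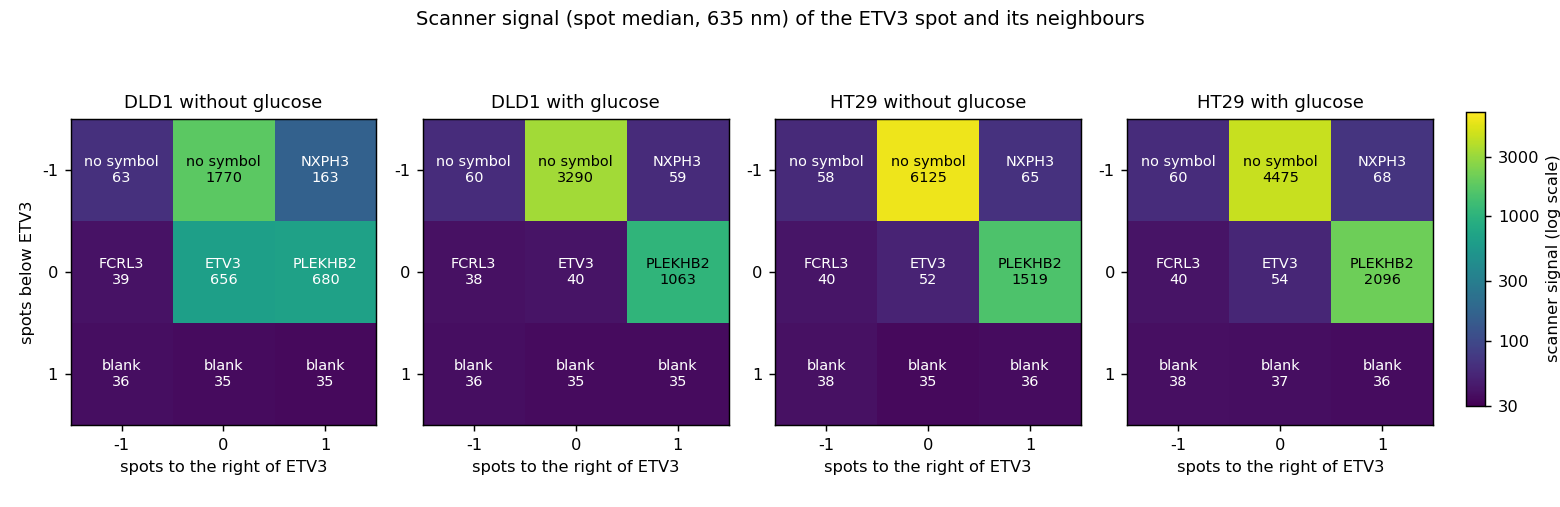
Scanner signal (spot median, colour on a log scale, value printed) of the ETV3 spot and the 8 spots around it on each array, by their distance in spots. In DLD1 without glucose ETV3 and NXPH3 are brighter, and PLEKHB2 and the unnamed probe dimmer, than on the other 3 arrays.

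By a search set after these values were seen, 1 probe was at least 5 times as bright in DLD1 without glucose as on each other array while staying under 60 on all of those. It was the ETV3 probe. The same search found 0 probes in DLD1 with glucose, 6 in HT29 without glucose and 2 in HT29 with glucose. An edge spot at least as bright lay beside ETV3, beside 2 of the 6 and beside 1 of the 2. Among all probes with a signal of 300 to 1000, such an edge spot was seen for 36.1% in DLD1 without glucose and for 39.9% to 44.0% on the other arrays.

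For the other ETS factors past 2-fold, the adjoining spots brighter than a signal of 100 on either array are given. ETS1 in HT29 without glucose was at 211.2 on the scanner scale, and its brightest adjoining spot, for the growth factor gene EGF, was at 127.5, against 96.4 with glucose, with SAFB2 at 109.6, against 123.7. ETV4 in HT29 was at 94 without glucose, against 267.5 with glucose, and the spot to its left, for the thrombin receptor gene F2R, was at 108.2, against 377.9. Beside it CELSR2 was at 268.5, against 276.0, and EIF5B at 423.6, against 586.8. The normalized log2 changes in HT29 were -1.31 for F2R, 0.29 for CELSR2 and -0.10 for EIF5B, beside -1.06 for ETV4. The local background of the ETV4 spot in HT29 was 36.2 without glucose, against 99.1 with glucose. ELF3 in DLD1 was at 313.6 without glucose, against 157.4 with glucose, and the spot to its right, for the initiation factor gene EIF4B, was at 1524.9, against 1269.0. Below it NPEPPS was at 748.1, against 924.3, and RRM2 on the diagonal at 2933.1, against 5335.2, before normalization. The normalized log2 changes in DLD1 were 0.68 for EIF4B, 0.08 for NPEPPS and -0.61 for RRM2, beside 1.16 for ELF3. The local background of the ELF3 spot in DLD1 was 141.9 without glucose, against 50.2 with glucose. The part of these spots in the values was not tested either.

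ETV3 lies at chr1:157121191-157138395 of GRCh38.p14, with ETV3L and ARHGEF11 on one side and FCRL5 and FCRL4 on the other. ETV3L, a relative of ETV3, had intensities of 7.7 in DLD1 without glucose, against 7.9 with glucose, and of 17.1 in HT29 without glucose, against 11.8 with glucose. The log2 changes in DLD1 were -0.02 for ETV3L, 0.01 for ARHGEF11, -0.02 for FCRL5 and 0.02 for FCRL4. The largest size among these 4 neighbours was 0.12, for ETV3L in HT29.

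The genes most like ETV3 were taken by the smallest distance between log2 values centred over the 4 arrays. They were NUPR1 (distance 0.52), ALPP (1.20), HCFC1R1 (1.22), CMKLR2 (1.26) and KLK1 (1.39). NUPR1, which encodes a stress-induced chromatin protein, had intensities of 515.5 in DLD1 without glucose, against 24.4 with glucose, and of 27.8 in HT29 without glucose, against 9.0 with glucose. KLK1, the tissue kallikrein gene, was at 328.5 in DLD1 without glucose, against 67.7 with glucose, and at 18.1 in HT29 without glucose, against 27.5 with glucose. Each of the 5 was brightest in DLD1 without glucose, as ETV3 was, which follows from the choice by likeness. Nothing is read from it, and the likeness rests on 4 arrays.

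The stretches before the starts of ETV3 and ELF3 are shown because these were the 2 members at least 2-fold higher in DLD1 without glucose. Of the 10 members 7 have a promoter in the RefSeq table used (GRCh38.p14). The 250 bases upstream of the start are printed on the strand of the gene, with the ETS core GGAA, or TTCC on the other strand, in capitals. The ETV3 stretch is chr1:157138396-157138645 on the minus strand and that of ELF3 chr1:202010337-202010586 on the plus strand.
ETV3: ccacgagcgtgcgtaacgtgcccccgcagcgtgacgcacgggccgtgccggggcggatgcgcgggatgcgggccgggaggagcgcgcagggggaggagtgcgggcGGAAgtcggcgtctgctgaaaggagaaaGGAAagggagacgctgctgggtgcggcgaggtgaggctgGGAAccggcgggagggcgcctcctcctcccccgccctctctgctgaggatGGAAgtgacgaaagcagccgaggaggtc
ELF3: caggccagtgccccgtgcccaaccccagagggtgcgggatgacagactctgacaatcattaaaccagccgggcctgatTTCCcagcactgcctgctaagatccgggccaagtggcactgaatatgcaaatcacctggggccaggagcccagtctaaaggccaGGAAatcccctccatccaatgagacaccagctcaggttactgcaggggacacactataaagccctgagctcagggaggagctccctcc
The ETV3 stretch holds 4 GGAA cores and that of ELF3 1 GGAA and 1 TTCC, and 92.7% of the 35116 RefSeq promoter stretches of this length hold at least 1. The longer form CGGAAGT, which contains the core, occurs once in ETV3, and 5.69% of all stretches hold it on either strand. TGACG, the first 5 letters of the cyclic AMP response element, occurs at 2 places in ETV3 and 0 in ELF3, against 21.2% of all stretches with at least 1. The full element TGACGTCA (1.65% of all stretches) and the other extended ETS form CCGGAAG (8.52%) occur in neither. The ATF4 and C/EBP composite TGATGNAA (3.14% of all stretches), the AP-1 letters TGANTCA (6.57%) and the E-box CACGTG (6.34%) occur in neither. Both strands were searched in each case.

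ELF3 and EHF encode epithelium-specific activators. ELF3 was at 238.2 in DLD1 without glucose, against 96.0 with glucose, and at 405.7 in HT29 without glucose, against 299.8 with glucose. It was higher without glucose in both lines, by 1.16 for DLD1 and by 0.42 for HT29 (mean over the lines 0.79, SD 0.53, n = 2). Median scaling gave 0.93 in DLD1, and subtraction of the local background 0.83, both short of 2-fold. EHF was at 44.1 in DLD1 without glucose, against 50.8 with glucose, and at 121.5 in HT29 without glucose, against 162.2 with glucose. Its changes were small, -0.11 and -0.27, and opposite in sign to those of ELF3 in both lines. Both were smaller than the spread between paired probes of one gene, an SD per probe of 0.20 in DLD1 and 0.30 in HT29. No contrast between these close relatives is therefore read from them.

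ETS1 and ETS2 encode the founding activators of the family. ETS1 was at 6.2 in DLD1 without glucose, against 3.4 with glucose, and at 169.0 in HT29 without glucose, against 14.8 with glucose. Only the HT29 array without glucose carried a clear ETS1 signal. The change was 0.08 in DLD1 and 1.82 in HT29, or 0.87 and 3.51 in the deposited values, and the difference between the lines was not tested. ETS2 was at 262.5 in DLD1 without glucose, against 408.0 with glucose, and at 253.0 in HT29 without glucose, against 419.3 with glucose. It was lower without glucose in each line, with changes of -0.42 for DLD1 and -0.57 for HT29 (mean over the lines -0.50, SD 0.11, n = 2). With the local background subtracted the ETS2 changes were -1.09 and -1.02, past 2-fold in both lines.

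ETV4 and ETV5 encode the PEA3 branch of activators, which sits downstream of receptor tyrosine kinases. ETV4 was at 43.4 in DLD1 without glucose, against 56.7 with glucose, and at 56.3 in HT29 without glucose, against 173.5 with glucose. Its HT29 level with glucose stood above the other 3 arrays. The changes were -0.20 in DLD1 and -1.06 in HT29, and the HT29 value was -0.75 with the local background subtracted. ETV5 was at 115.1 in DLD1 without glucose, against 98.3 with glucose, and at 153.2 in HT29 without glucose, against 86.7 with glucose. Its changes were 0.23 and 0.60, so in HT29 the 2 paralogues had changes of opposite sign, as they did under every setting tried. The DLD1 value of ETV5 was -0.03 with the local background subtracted.

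ETV6 encodes a repressor with a self-associating pointed domain, ELF1 an activator of lymphoid and epithelial genes, and ELK1 a partner of SRF at immediate early promoters. ETV6 was at 18.3 in DLD1 without glucose, against 25.9 with glucose, and at 37.1 in HT29 without glucose, against 63.1 with glucose. Its changes were -0.18 and -0.36. ELF1 was at 549.6 in DLD1 without glucose, against 606.5 with glucose, and at 710.2 in HT29 without glucose, against 498.1 with glucose. Its changes were 0.10 and 0.49, and the first was -0.24 with median scaling. The first ELK1 probe was at 12.9 in DLD1 without glucose, against 21.2 with glucose, and at 22.3 in HT29 without glucose, against 22.8 with glucose. The second was at 5.5 in DLD1 without glucose, against 8.2 with glucose, and at 9.3 in HT29 without glucose, against 9.4 with glucose. Both ELK1 probes were dimmest in DLD1 without glucose, and the changes over both were -0.16 and -0.01.

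In DLD1, 2 of the 10 members were past 2-fold higher without glucose and 0 past 2-fold lower, against 1.21% and 0.82% of the 15616 measured genes. In HT29, 1 lay past 2-fold on the higher side (ETS1) and 1 on the lower (ETV4), against 3.84% and 3.31%. Since ETV3 was chosen by the DLD1 contrast, nothing is read from these counts. The median change of the members was -0.015 in DLD1 and 0.012 in HT29, against medians of -0.0024 and -0.0023 over all genes. All 10 had changes of the same sign in both lines, 5 higher and 5 lower, against 63.6% of all genes. That number was 9 under median scaling and 9 in the deposited values, with ELF1 the exception, and 7 with the local background subtracted, with ETV3, ETV5 and ELK1 the exceptions. Between paired probes of one gene (1681 genes), the change had an SD per probe of 0.20 in DLD1 and 0.30 in HT29. The changes of ETV6, ETS1, ELF1, EHF and ELK1 in DLD1, and of ETV3, EHF and ELK1 in HT29, were smaller than that spread. Since the choice used the DLD1 contrast and several signs rest on such small changes, nothing is read from the number of shared signs. For the effect of the medium over all genes, a limma fit blocked on the line called 0 (0%) at an adjusted p below 0.05, with 2159 at an unadjusted p below 0.05. The members are among the genes of that fit, and since the choice used this contrast nothing is read from it for them.

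**Figure D3:**
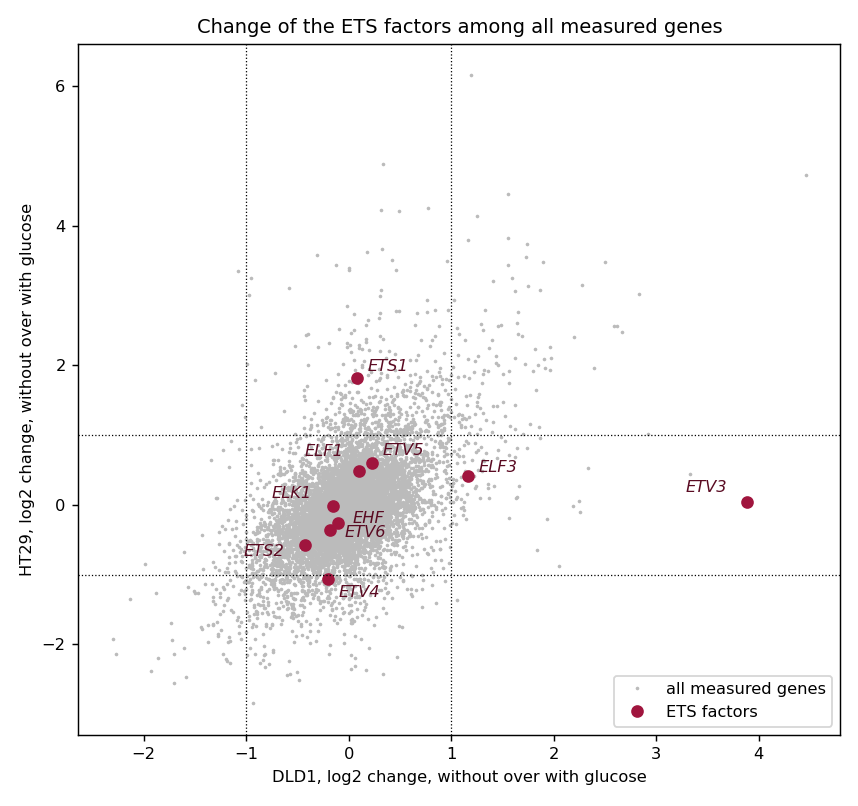
Log2 change without over with glucose in DLD1 (x axis) and HT29 (y axis) for all 15616 measured genes (grey) and the 10 ETS factors (red). Dotted lines mark 2-fold, and ETV3 lies at 3.89 and 0.04, apart from the other 9, of which ELF3 at 1.16 is the only one past 2-fold in DLD1.

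**Figure D4:**
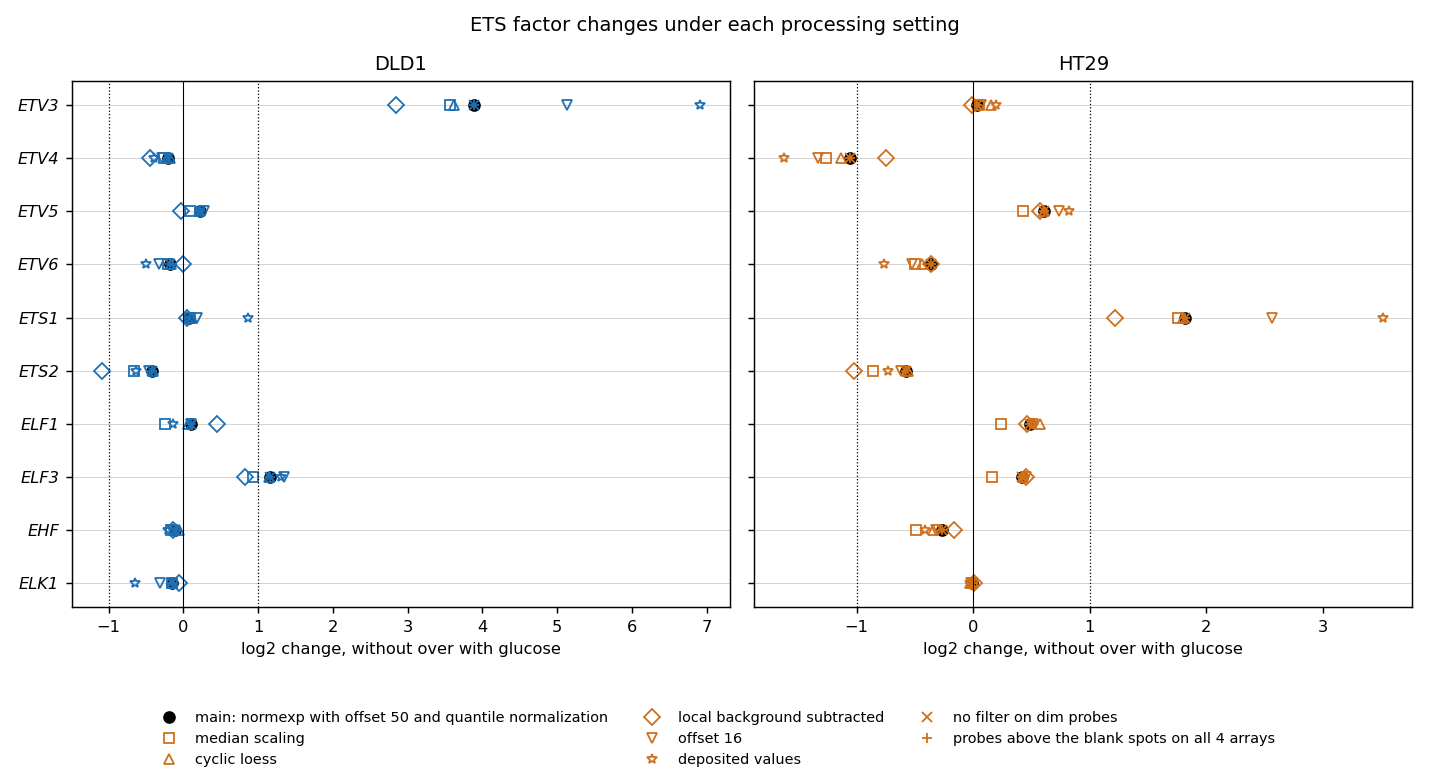
Log2 change of each ETS factor in DLD1 (left) and HT29 (right) under the main setting (black) and 7 others (coloured marks). ETV3 in DLD1 spans 2.84 to 6.91 and ETS1 in HT29 spans 1.22 to 3.51, while ELF3 in DLD1 falls on both sides of 2-fold.

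The lines were then compared at equal medium. For ETV3 this contrast is not independent of the choice of members, which used its value in DLD1 without glucose, so its line difference is a description with no test. EHF, ELF3 and ETV6 were brighter in HT29 than in DLD1 in both media. For EHF the difference HT29 minus DLD1 was 0.86 without glucose and 1.02 with glucose, or 0.94 ± 0.07 (SE of the fit, n = 2 arrays a line). Limma with the medium as a block gave EHF an adjusted p of 0.137, and a range of 0.052 to 0.295 over the settings. ETV6 differed by 0.39 and 0.57 (0.48 ± 0.08, limma adjusted p = 0.173). ELF3 differed by 0.41 without glucose and 1.15 with glucose (0.78 ± 0.26, limma adjusted p = 0.301). None of the 3 passed the threshold of 0.05.

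For ETV3, ETS1 and ETV4 the difference between the lines was large in one medium only. ETV3 differed by -3.59 without glucose and 0.26 with glucose. ETS1 differed by 2.06 without glucose and 0.32 with glucose (limma adjusted p = 0.426), and ETV4 by 0.17 and 1.02 (limma adjusted p = 0.423). ETS2, ELF1, ETV5 and ELK1 differed by at most 0.48 in size in either medium, with limma adjusted p from 0.299 to 0.980. Without glucose 1 member, ETS1, was past 2-fold higher in HT29, against 4.77% of all genes. The 1 member past 2-fold lower was ETV3, fixed by the choice, beside 4.79% of all genes, and nothing is read from it. With glucose 3 were higher and 0 lower, against 3.09% and 2.75%. By limma 0 of the 9 members other than ETV3 and 0 (0%) of 15616 genes were called between the lines at an adjusted p below 0.05. At an unadjusted limma p below 0.05 there were 3342 of 15616 genes, among them EHF and ETV6, 2 of the 9 members other than ETV3. With so many genes below that level, nothing is read from this count for the members. The fit has 1 residual degree of freedom and little power, so a missed threshold does not show that the lines were alike. These p-values set the line difference against how unequal it was in the 2 media, with the variance moderated over all genes. A difference that varied with the medium, as for ETS1 and ETV4, is thereby given a larger p-value. The spread between cultures or repeat arrays is not measured.

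The other 18 genes of the family were listed next, of which 16 were measured in both lines. At the offset of 50 none reached 2-fold in either line, and the medians were -0.02 in DLD1 and -0.02 in HT29. Over the settings the lowest HT29 values were -1.93 for SPDEF, -1.26 for ERF, -1.01 for ELF2 and -1 for SPIB, so these 4 reached 2-fold under at least 1 other setting. SPIB lay close to the blank spots, at 1.2 in HT29 without glucose, against 2.4 with glucose. The 2 ELF2 probes were at 43.8 and 3.5 in HT29 without glucose, against 80.5 and 7.7 with glucose. ERF, a close relative of ETV3 and like it a repressor, was at 24.1 in DLD1 without glucose, against 36.0 with glucose, and at 65.7 in HT29 without glucose, against 157.1 with glucose. Its changes were -0.25 and -0.82. SPDEF, an ETS factor of goblet cells, was at 16.1 in HT29 without glucose, against 61.3 with glucose, with a change of -0.79, which over the settings ran from -1.93 to -0.02. It was at 4.3 and 4.0 in DLD1. ELF2 had changes of -0.08 and -0.29, and GABPA, which encodes a factor of mitochondrial and housekeeping promoters, of 0.20 and 0.11.

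Transcripts known to follow ERK activity were read beside the factors. For this and the following lists, the shares of all genes past 2-fold were 1.21% higher and 0.82% lower in DLD1, and 3.84% and 3.31% in HT29. Of 15 measured, 1 was at least 2-fold higher in DLD1 without glucose and 2 in HT29, 0 were 2-fold lower, and the medians were 0.22 in DLD1 and 0.05 in HT29. DUSP5, a nuclear phosphatase that holds ERK inactive, was at 824.8 in DLD1 without glucose, against 305.7 with glucose, and at 1703.3 in HT29 without glucose, against 150.1 with glucose. Its changes were 1.62 and 3.07. The ephrin receptor gene EPHA2 was 0.38 and 1.32 higher and SPRED2, an inhibitor of RAF activation, 0.48 and 0.49 higher. SPRY1, another feedback inhibitor, was at 0.27 in DLD1 and -0.83 in HT29. ETV4 and ETV5, which belong to the same group of transcripts by textbook knowledge, are described above.

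Of 10 targets of SRF with ELK factors, 0 reached 2-fold in DLD1 and 3 were 2-fold higher in HT29, with medians of 0.03 and 0.44, beside 1.21% and 3.84% of all genes 2-fold higher in DLD1 and HT29. FOS was at 29.1 in DLD1 without glucose, against 15 with glucose, and at 1002.5 in HT29 without glucose, against 103.2 with glucose, a change of 0.31 and 2.76. EGR1 was at 85.2 in DLD1 without glucose, against 130.8 with glucose, and at 467.9 in HT29 without glucose, against 46.0 with glucose, a change of -0.40 and 2.45. ZFP36, which encodes an mRNA decay factor, was 0.27 and 1.29 higher. SRF itself was -0.55 in DLD1 and 0.75 in HT29. Of the ELK factors, ELK1 had a change of -0.01 in HT29, ELK3 of 0.03 and ELK4 of -0.16. Their probes were dim, and the offset shrinks such changes.

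Among 11 measured proteinase and inflammatory targets of ETS1 and PEA3 class factors, 1 was at least 2-fold higher in DLD1 and 2 in HT29, with medians of 0.04 and 0.21. The deposited values gave medians of 0.32 and 1.56. VEGFA, the vascular growth factor gene, was 1.16 and 2.08 higher. PLAUR, the urokinase receptor gene, was at 1439.9 in HT29 without glucose, against 365.9 with glucose, and at 161.6 in DLD1 without glucose, against 135.1 with glucose, a change of 1.79 in HT29 and 0.30 in DLD1. PLAU, the urokinase gene, had changes of 0.40 in DLD1 and 0.57 in HT29, and the proteinase inhibitor gene TIMP1 of 0.23 and 0.37. Over the settings the HT29 values ran from 0.24 to 2.25 for PLAU and from 0.17 to 2.63 for TIMP1, and the DLD1 values reached 1.22 for both.

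Of 11 measured epithelial genes linked to ELF3 and EHF, 1 was at least 2-fold higher in each line, ESRP1, and the medians were 0.17 in DLD1 and -0.06 in HT29. Over the settings they ran from -0.07 to 0.19 in DLD1 and from -0.26 to 0.02 in HT29, so neither has a settled sign. ESRP1, an epithelial splicing regulator, was at 200.3 in DLD1 without glucose, against 46.2 with glucose, and at 792.8 in HT29 without glucose, against 333.8 with glucose. Its changes were 1.57 and 1.13. OVOL1, a repressor of mesenchymal genes, was at -0.25 and 0.97, the receptor gene ERBB3 at -0.14 and -0.90, and the keratin gene KRT19 at 0.19 and -0.70.

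Of 10 measured components of the ERK pathway, 0 reached 2-fold in DLD1 and 1 was 2-fold lower in HT29, HRAS, with medians of -0.13 and -0.02. HRAS was -0.58 in DLD1 and -1.10 in HT29. ERBB3, which also belongs to this list, was lower in HT29 by the amount given above, MAPK3 (ERK1) had changes of -0.13 and -0.55, and MAP2K2 (MEK2) of -0.08 and 0.41. Of 19 measured partners and regulators of ETS proteins, 0 reached 2-fold in DLD1 and 1 was 2-fold higher in HT29, TRIB1, with medians of 0.02 and 0.01. TRIB1, a scaffold of the COP1 ubiquitin ligase, was at 882.0 in HT29 without glucose, against 219.7 with glucose, a change of 1.78, and at -0.22 in DLD1. DAXX had changes of -0.27 and -0.84, and its HT29 value ran from -1.15 to 0.55 over the settings. DET1, which encodes a partner of that ligase, had changes of 0.56 and 0.26. Over the 7 lists limma gave 0 genes an adjusted p below 0.05 for the medium.

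**Figure D5:**
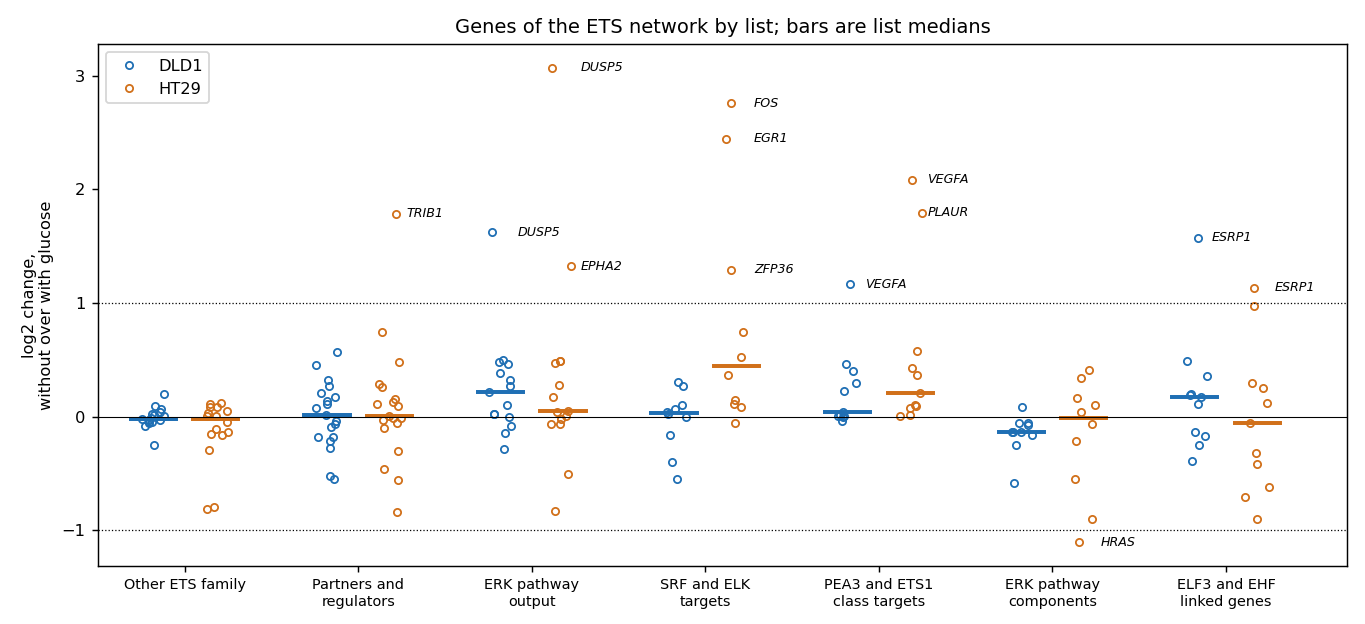
Log2 change without over with glucose of each measured gene of the 7 lists, DLD1 in blue and HT29 in orange, with bars at the list medians and names at 2-fold or more. Values are those of the main setting, at which the 16 other ETS family genes lie within 2-fold in both lines, and the SRF and ELK targets FOS, EGR1 and ZFP36 lie above it in HT29 alone.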

How the data were processed

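Per the file headers, the deposited scanner files hold spot and surround medians of Cy5 intensity, joined from 3 gains, with no background subtracted. The value table deposited by the authors holds linear intensity. No source used here says how it was made, but its columns ran linearly with the scanner's spot medians, so scale and direction are known. Spot medians were corrected with normexp (offset 50, all spots), stripped of control spots and 1 flagged probe, quantile normalized and fitted with limma 3.58.1 in R 4.3.3, with Benjamini-Hochberg adjustment over 15616 genes. A gene was measured if a probe exceeded the 95th percentile of blank spots on at least 1 array of each line, and its value is the mean of its probes above it on any array. Of 24459 probes 20235 had 1 symbol, 0 had several and 4224 had none, and 2491 older symbols were updated through RefSeq. Arrays were grouped by sample title. The 4 arrays limit the precision.

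The members and lists were chosen with earlier results of these data known. The text names each member, the 4 list genes with the largest mean size of change, the 5 genes nearest ETV3 and its 2 coding neighbours on each side. Further probes, those beside the member spots and those found by the 1-array search, were picked with their values in view, as were the limits of that search. The alternatives were median scaling, cyclic loess, local background subtraction, an offset of 16, the deposited values and 2 filters on dim probes. On simulated data the line fit returned the planted sizes but called none of the planted genes at the adjusted threshold. Few genes were planted there, while in the data 3342 had an unadjusted limma p below 0.05, which makes the adjustment less strict. The simulation thus does not give the share of differences missed in these data. An absence of calls is not read as an absence of differences.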

Additional observations from a re-analysis of the deposited data

Results flagged for a closer look

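Named genes whose change had opposite signs in the 2 lines, each by at least 0.25 on the log2 scale, are given here as values. That minimum was chosen after values had been seen. No difference between the lines was tested, since each rests on 1 array a group. EGR1 was at -0.40 in DLD1 and 2.45 in HT29, and its DLD1 value lay between -0.62 and 0.65 over the settings. SRF was at -0.55 in DLD1 and 0.75 in HT29. OVOL1 was at -0.25 in DLD1 and 0.97 in HT29. SPRY1 was at 0.27 in DLD1 and -0.83 in HT29. None of the 10 ETS factors met this rule.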

How the results depend on the processing

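ETV3 in DLD1 was 3.57 with median scaling, 3.62 with cyclic loess, 2.84 with the local background subtracted, 5.12 with an offset of 16 and 6.91 with the deposited values, against 3.89. Genes past 2-fold numbered 317 in DLD1 and 1117 in HT29. In DLD1 there were 1080 with the local background subtracted, 526 with an offset of 16 and 1216 with the deposited values, and in HT29 3103 with the deposited values. Median scaling moved the split to 96 higher and 321 lower in DLD1, against 189 and 128, and to 444 and 895 in HT29, against 600 and 517. The local background moved it to 514 and 566 in DLD1, and the deposited values to 563 and 653 in DLD1 and 1451 and 1652 in HT29. Genes called between the lines by limma numbered 772 with the deposited values and 25 without the medium as a block, against 0, and called members 0 in each case. The HT29 minus DLD1 difference changed sign for ETV5 (0.0468 under median scaling, 0.1157 in the deposited values, against -0.0114) and ELF1 (0.0429 in the deposited values, against -0.28). The cause of these shifts was not tested. Among the other list genes named, the DLD1 value of ERF, SPDEF, TRIB1, ERBB3, PLAUR, TIMP1, MAP2K2 and KRT19, and the HT29 value of GABPA and DET1, changed sign under some setting. The labels give no replicate numbers. The arrays were paired by line in the fit of the medium and by medium in the fit of the lines, each with 1 residual degree of freedom. Within 1 medium the line comparison has no residual degrees of freedom and gives no call. Of the 10 ETS factors all but ELK1 rest on 1 probe.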

Other observations

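ELF5, an epithelial ETS gene close to ELF3 and EHF, was left out of the counts because it was not above the blank spots on either DLD1 array. In HT29 its intensity was 10.7 without glucose, against 63.6 with glucose, while in DLD1 it was not listed without glucose and was at 1.0 with glucose. SPIC, the other family gene left out, was at 1.2 in HT29 without glucose and not listed on the other arrays.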
